A study of Mus musculus with 8 samples.

Results

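Memory B cells are long-lived, quiescent cells that arise largely from germinal centers and answer a second encounter with an antigen. In the mouse they are sorted with the ectoenzymes CD73 and CD38, the B7 ligands CD80 and PD-L2 and the complement regulator CD55, and their formation or recall involves transcriptional regulators such as HHEX and ZBTB32. The transcripts of 8 such genes (Nt5e, Cd80, Pdcd1lg2, Cd38, Cd55, Plac8, Hhex and Zbtb32) were followed across 8 mouse RNA-seq libraries. The genes were taken by symbol, whatever their level, and are 8 of the 55401 genes counted. All 8 passed the filter on low counts in every comparison. CD38 marks naive and memory B cells and is low on germinal center B cells in this species, and CD73 is also carried by many germinal center B cells, so the 8 transcripts are not expected to move as a block and none is found in memory B cells alone.

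The libraries formed 4 groups of 2. Germinal center B cells, the dividing follicle cells that mutate their antibody genes, were sorted from spleen by FACS, and activated B cells were splenic B cells bound with a biotinylated pan-B reagent, captured on streptavidin beads and stimulated in culture. Both cell types came from C57BL/6 wild-type (WT) mice and from C57BL/6 mice labelled as a B cell knockout (KO) of Jmjd1c, a Jumonji-domain gene of the histone H3K9 demethylase family. The sources used here do not give the allele, the Cre driver, the deleted exons, the immunization, the stimulus, the age of the mice or whether replicates came from separate mice. The p-values therefore cover only how far these libraries differ within a group, which may be technical.

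Libraries held 8777425 to 11414559 counts on genes. The targeted gene, Jmjd1c, had 1341 and 1330 counts in the KO libraries of germinal center B cells against 1850 and 1950 in their WT libraries. Activated B cells had 1329 and 1520 counts of it with the KO label against 2656 and 2852 with the WT label. It fell in both cell types (log2 fold change -0.20, adjusted p = 1.66e-05, and -0.94, adjusted p = 1.81e-11, edgeR), with a smaller fall in germinal center B cells (difference 0.74, adjusted p = 1.39e-14). Levels below are in CPM, counts scaled to the library total, on 1 TMM scale over all 8 libraries. Values with ± are means and SDs over n = 2 libraries. Log2 fold changes come from edgeR's quasi-likelihood test, with an SE derived from its F statistic. Benjamini-Hochberg adjustment was over all genes tested, and genes were called at an adjusted p under 0.05. The 6 germinal center markers (Bcl6, Fas, S1pr2, Mybl1, Gcsam and Rgs13) were all higher in the sorted cells than in activated B cells of the same genotype, in WT and in KO. The name activated B cells rests on the description of the samples, not on their transcripts. All 4 follicular or naive B cell markers were higher in activated than in germinal center B cells in WT, and 3 of them in KO. Among these, Ighd stood at 3528 ± 38.8 CPM in WT activated and 142 ± 0.78 CPM in WT germinal center B cells. How far the cells were activated when collected was not tested.

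The upstream sequence is shown for the 5 members whose RefSeq promoter (GRCm38.p6) has bases before both the RefSeq and the GENCODE M21 start of the gene, all 5 of which rose in KO germinal center B cells. Each is written 5′ to 3′ on the strand of the gene, and capitals mark matches on either strand to a kappaB-like pattern, GGG followed by any 5 bases and CC.
Pdcd1lg2, plus strand, chr19:29410669-29410918: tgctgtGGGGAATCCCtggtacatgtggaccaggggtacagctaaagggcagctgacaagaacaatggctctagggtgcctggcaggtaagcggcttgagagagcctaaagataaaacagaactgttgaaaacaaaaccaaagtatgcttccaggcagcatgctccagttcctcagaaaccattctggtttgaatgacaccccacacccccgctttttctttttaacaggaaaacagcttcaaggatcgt
Cd55, minus strand, chr1:130462745-130462994: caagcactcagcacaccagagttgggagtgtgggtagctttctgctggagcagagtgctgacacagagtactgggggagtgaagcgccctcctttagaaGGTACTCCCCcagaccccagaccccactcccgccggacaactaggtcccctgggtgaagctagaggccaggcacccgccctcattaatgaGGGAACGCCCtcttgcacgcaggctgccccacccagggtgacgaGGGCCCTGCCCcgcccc
Plac8, minus strand, chr5:100572246-100572455: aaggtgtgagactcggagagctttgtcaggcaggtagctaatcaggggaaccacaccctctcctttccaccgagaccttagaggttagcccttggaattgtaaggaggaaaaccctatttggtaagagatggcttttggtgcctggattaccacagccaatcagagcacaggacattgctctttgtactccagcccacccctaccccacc
Hhex, plus strand, chr19:37434591-37434809: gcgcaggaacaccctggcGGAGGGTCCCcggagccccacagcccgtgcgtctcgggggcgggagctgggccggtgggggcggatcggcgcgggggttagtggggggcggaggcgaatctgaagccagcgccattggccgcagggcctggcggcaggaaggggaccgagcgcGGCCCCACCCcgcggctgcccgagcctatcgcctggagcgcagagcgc
Zbtb32, minus strand, chr7:30598910-30599159: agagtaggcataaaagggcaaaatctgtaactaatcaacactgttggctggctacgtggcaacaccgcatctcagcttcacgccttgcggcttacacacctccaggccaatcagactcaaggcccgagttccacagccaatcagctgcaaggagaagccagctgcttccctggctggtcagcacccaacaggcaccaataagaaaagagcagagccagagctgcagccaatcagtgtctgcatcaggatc

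These stretches differ widely in composition. Over the 250 bases before the RefSeq start, Hhex had 76.0% G and C with 32 CpG and Nt5e 72.0% with 21 CpG, whereas Cd38 had 48.8% with 1 CpG and Plac8, at its first start, 52.8% with 4 CpG. Members with CpG-rich and with CpG-poor starts are thus found among those that rose, and Nt5e, which fell, also has a CpG-rich start. The interferon-stimulated response core, GAAA, any 2 bases and GAAA, which 2.98% of 32851 promoters hold, and the STAT- and BCL6-like TTCNNNGAA, which 7.02% hold, matched in none of the 10 starts of the 8 members. The kappaB-like pattern, which 45.8% of promoters hold, matched upstream of Nt5e, Cd80, Pdcd1lg2, Cd55 and Hhex. Matches on both strands overlapped in Nt5e and Cd55, and the stretch marked in Pdcd1lg2 fits the pattern on both strands. A match describes letters and is not evidence of binding.

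Most memory markers were higher in KO than in WT germinal center B cells. Of the 8, Plac8, Hhex, Cd55, Cd38, Pdcd1lg2 and Zbtb32 rose, Nt5e fell and Cd80 did not pass. Over all 13350 genes tested, 50.2% were called, 25.1% higher and 25.1% lower, so a call alone says little here, and 8.98% were called with more than a 2-fold difference, as were 7 of the 8 markers. The median log2 fold change of the 8 was 1.64, beside -0.00443 over all genes. The KO and WT libraries did not overlap for 7 of the 8, a property shared by 72.8% of all genes tested. In such bulk samples, a change in the number of cells that hold a transcript and a change in transcript per cell cannot be told apart, which touches each result below.

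**Figure D1:**
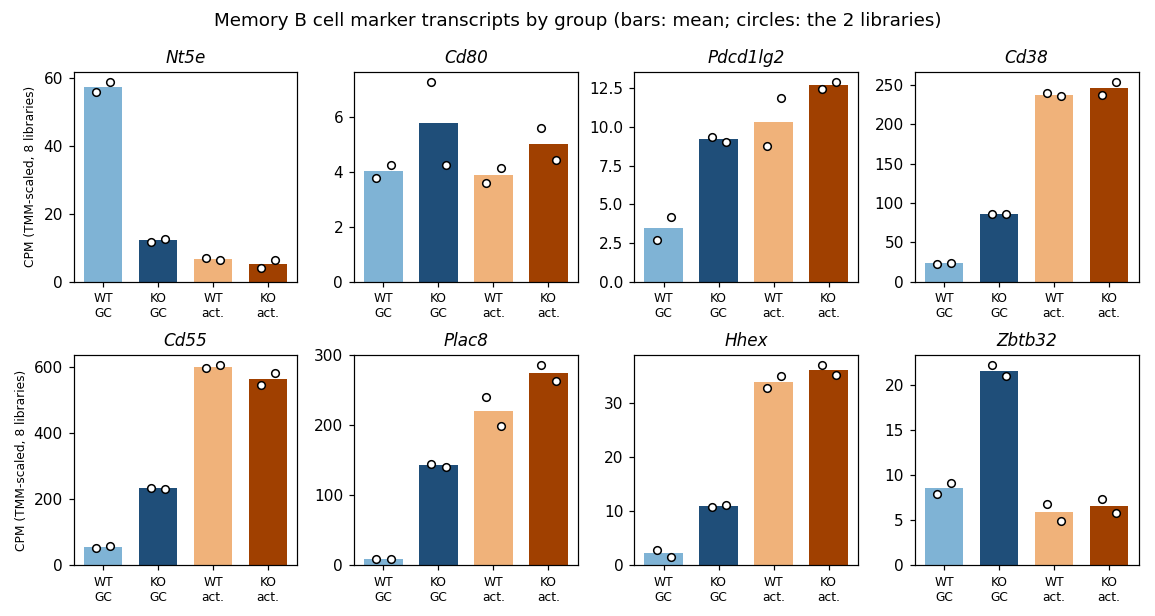
Level of each memory B cell marker in the 4 groups, in CPM on 1 TMM scale (y axes start at 0 and differ between panels). Bars are group means and circles are the 2 libraries. KO germinal center (GC) cells lie between WT germinal center and activated (act.) cells for Cd38, Cd55, Plac8, Hhex and Nt5e, and above all other groups for Zbtb32.

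Cd38 encodes an ectoenzyme that consumes NAD (chromosome 5, 43868553 to 43912375, plus strand, GRCm38). It stood at 85.6 and 86.6 CPM in the KO and at 23.2 and 23.4 CPM in the WT germinal center libraries. Its level in activated B cells was 237 and 254 CPM in KO and 240 and 236 CPM in WT. The germinal center libraries of the genotypes were far apart, and those of activated B cells overlapped. Cd38 rose 3.71-fold in KO germinal center B cells (log2 fold change 1.89, SE 0.08, adjusted p = 6.18e-118). The difference in activated B cells was 0.05 (SE 0.05, adjusted p = 0.707), with a 95% interval from -0.06 to 0.16.

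Nt5e encodes CD73, which makes adenosine from AMP (chromosome 9, 88327197 to 88372092, plus strand). It was the only one of the 8 that fell in KO germinal center B cells, to 11.7 and 12.7 CPM from 55.8 and 58.8 CPM in WT. That was a 4.69-fold decrease (log2 fold change -2.23, SE 0.11, adjusted p = 7.60e-96). Activated B cells held little of it, at 3.98 and 6.45 CPM in KO and 7.004 and 6.43 CPM in WT, and their genotypes overlapped (log2 fold change -0.36, 95% interval -0.82 to 0.10, adjusted p = 0.422). Cd38 and Nt5e therefore had opposite orders over the groups, with WT germinal center B cells lowest for Cd38 and highest for Nt5e.

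Other genes of extracellular purine and NAD metabolism gave 5 higher and 3 lower in KO germinal center B cells among 8 tested of 14 listed, with a median log2 fold change of 2.27. Entpd1, which encodes CD39, the enzyme that supplies AMP to CD73, increased to 15.3 ± 0.08 CPM in KO from 2.03 ± 0.68 CPM in WT (log2 fold change 2.93, SE 0.22). Dpp4, which encodes the ectopeptidase CD26, rose from 8.74 ± 0.65 to 41.0 ± 0.19 CPM (2.23, SE 0.12), and Adora2a, an adenosine receptor gene, rose from 1.78 ± 0.44 to 9.97 ± 1.03 CPM (2.46, SE 0.26). Ada, the adenosine deaminase gene, fell from 199 ± 3.09 to 128 ± 3.71 CPM (-0.64, SE 0.05). The 2 enzyme genes next to each other in adenosine formation, Entpd1 and Nt5e, thus moved in opposite directions. Among activated B cells 1 of 11 tested genes of this list, Adora2a (0.63, SE 0.12), rose and 10 did not pass. Over all 14110 genes tested in activated B cells, 6.27% were called (4.85% higher, 1.42% lower). That share also stands beside the counts of the lists below. Bst1, a relative of Cd38 that lies 24.6 kb from it, stayed below 2 CPM in the germinal center groups and was not tested there. Bst1 is named for its position, outside the rule for named genes.

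Of the B7 ligands, Pdcd1lg2 moved and Cd80 did not pass. Pdcd1lg2 encodes PD-L2, a ligand of PD-1 (chromosome 19, 29410919 to 29471161, plus strand). It stood at 9.36 and 9.03 CPM in KO and 2.72 and 4.19 CPM in WT germinal center B cells, from 76 to 77 and from 26 to 46 counts. The KO libraries were both above the WT libraries (log2 fold change 1.39, SE 0.22, adjusted p = 3.14e-09). Levels in activated B cells were 12.5 and 12.9 CPM in KO and 8.76 and 11.9 CPM in WT, without overlap, yet the difference did not pass (log2 fold change 0.30, 95% interval -0.03 to 0.62, adjusted p = 0.333).

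Cd80 encodes a ligand of CD28 and CTLA-4 (chromosome 16, 38455561 to 38496335, plus strand). It was at 7.30 and 4.28 CPM in KO and 3.77 and 4.28 CPM in WT germinal center B cells. It was at 5.62 and 4.43 CPM in KO and 3.61 and 4.15 CPM in WT activated B cells. The libraries of all 4 groups lie in 1 narrow range, at 35 to 60 counts each, and 1 KO germinal center library stands above the rest. In germinal center B cells the log2 fold change was 0.52 (SE 0.24, adjusted p = 0.0649), and it turned on that library, being 0.86 (adjusted p = 0.00762) without KO replicate 2 and 0.09 (adjusted p = 0.860) without KO replicate 1. The value in activated B cells, whose genotypes did not overlap, was 0.37 (95% interval -0.12 to 0.87, adjusted p = 0.451). At these counts a change of the size seen was not resolved in either cell type.

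Among 10 other B7 ligand and receptor genes, 6 were tested in germinal center B cells, of which 5 rose and 1 did not pass. Cd274, which encodes the other PD-1 ligand PD-L1 and lies 22.8 kb from Pdcd1lg2 on the same strand, was at 10.1 ± 1.41 CPM in WT and rose to 34.7 ± 0.29 CPM in KO (log2 fold change 1.77, SE 0.12). Exons of AC119228.1 on the opposite strand cover 14.1% of its exon bases, so its level is uncertain. Cd274 fell in activated B cells (-0.21, SE 0.06, adjusted p = 0.0187), and its KO effects in the cell types differed by 1.99 (SE 0.12, adjusted p = 2.18e-26). Icosl, the ICOS ligand gene, rose by 0.57 and Cd86, the closest relative of Cd80, by 0.20 in germinal center B cells. Cd276, of the same family, rose by 1.87 (SE 0.37) from a level of only 1.10 ± 0.52 CPM. Cd86 stood at 151 ± 11.2 CPM in WT and 173 ± 8.25 CPM in KO there, and it also rose in activated B cells (0.31, SE 0.08, adjusted p = 0.0173). Of 7 genes of the list tested in activated B cells, Cd86 rose, Cd274 fell and 5 did not pass.

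Cd55 encodes decay-accelerating factor, which shields cells from complement (chromosome 1, 130439027 to 130462744, minus strand). It stood at 234 and 229 CPM in KO and 51.4 and 57.4 CPM in WT germinal center B cells. Activated B cells held more of it, at 544 and 581 CPM in KO and 594 and 604 CPM in WT. The genotypes did not overlap in either cell type, but the gap was wide only in germinal center B cells, where Cd55 rose 4.25-fold (log2 fold change 2.09, SE 0.05, adjusted p too small for the software to store). The difference in activated B cells was -0.09 (95% interval -0.20 to 0.02, adjusted p = 0.411). Exons of Gm16083 on the opposite strand cover 2.10% of the exon bases of Cd55, and its near copy Cd55b, named for its position, averaged under 1 CPM in each group. Cd55b lies 16.0 kb away, and how reads shared by the copies were counted is not stated, so the split between them is uncertain.

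Other complement genes did not move together. Of 9 listed, 7 were tested in germinal center B cells, and 2 rose, 1 fell and 4 did not pass, with a median log2 fold change of -0.01. Adgre5, which encodes CD97, a receptor that binds CD55, rose from 52.4 ± 2.05 to 147 ± 9.35 CPM (1.49, SE 0.06), and the complement receptor gene Cr2 rose by 0.42 (SE 0.04). Cd59a, a regulator of the membrane attack complex, fell by 0.64 (SE 0.21, adjusted p = 0.00677). C3, the central complement component, was at 0.77 ± 0.20 and 1.44 ± 0.19 CPM and did not pass (0.88, adjusted p = 0.134). Of 6 tested in activated B cells, C3 rose (1.23, SE 0.08, adjusted p = 1.16e-10), Cr2 fell (-0.19, SE 0.05, adjusted p = 0.0371) and 4 did not pass.

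Plac8, a small cysteine-rich protein gene of memory and innate cells, had the widest difference of the 8 (chromosome 5, 100553725 to 100572245, minus strand). Its levels were 144 and 141 CPM in KO and 8.17 and 8.92 CPM in WT germinal center B cells, which is 1188 and 1186 against 78 and 98 counts. It rose 16.7-fold (log2 fold change 4.06, SE 0.09, adjusted p too small for the software to store) and ranked 19 of 13350 by size of change. It was also the only member called in activated B cells, where 4.85% of 14110 genes were called higher. There it stood at 286 and 263 CPM in KO and 240 and 199 CPM in WT (log2 fold change 0.32, SE 0.07, adjusted p = 0.00277). That smaller call was lost without WT activated replicate 2 (0.19, adjusted p = 0.113) and without the filter on low counts (0.32, adjusted p = 0.0743).

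Hhex encodes a homeodomain repressor needed for memory B cell formation in mice (chromosome 19, 37434810 to 37440731, plus strand). It was at 10.8 and 11.2 CPM in KO and 2.83 and 1.55 CPM in WT germinal center B cells, the latter from 27 and 17 counts. It was at 37.1 and 35.3 CPM in KO and 32.8 and 35.0 CPM in WT activated B cells. Hhex rose 5.11-fold in germinal center B cells (log2 fold change 2.35, SE 0.24, adjusted p = 1.41e-21). The genotypes of activated B cells lay close together (0.10, 95% interval -0.08 to 0.28, adjusted p = 0.628).

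Zbtb32 encodes a zinc finger repressor that limits the recall response of memory B cells (chromosome 7, 30589681 to 30598909, minus strand). It was at 22.3 and 21.04 CPM in KO and 7.96 and 9.11 CPM in WT germinal center B cells. It was at 7.35 and 5.74 CPM in KO and 6.80 and 4.95 CPM in WT activated B cells. The KO germinal center libraries were highest, the WT germinal center libraries lay just above all 4 activated libraries, and the activated genotypes overlapped. The rise in germinal center B cells was 1.34 on the log2 scale (SE 0.15, adjusted p = 7.45e-19), and activated B cells gave 0.16 (95% interval -0.28 to 0.60, adjusted p = 0.764).

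Among 12 partners and targets of these regulators, 9 were tested in germinal center B cells, with 6 higher and 3 lower and a median of 0.36. Tle3, a corepressor gene that acts with Hhex, was at 47.9 ± 2.19 CPM in WT and rose to 92.8 ± 1.33 CPM in KO (log2 fold change 0.96, SE 0.07). Its relatives Tle1 (-0.52, SE 0.12) and Tle4 (-0.25, SE 0.06), named outside the rule for named genes, fell. Bcl2, a survival gene of memory B cells, rose from 8.16 ± 1.497 to 62.5 ± 3.31 CPM (2.95, SE 0.11). Bcl6, the repressor that defines the germinal center program, fell from 447 ± 8.50 to 300 ± 12.6 CPM (-0.57, SE 0.04), and the B lineage factor gene Pax5 rose by 0.36 (SE 0.03). Of these 9, 2 rose in activated B cells and 7 did not pass.

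**Figure D2:**
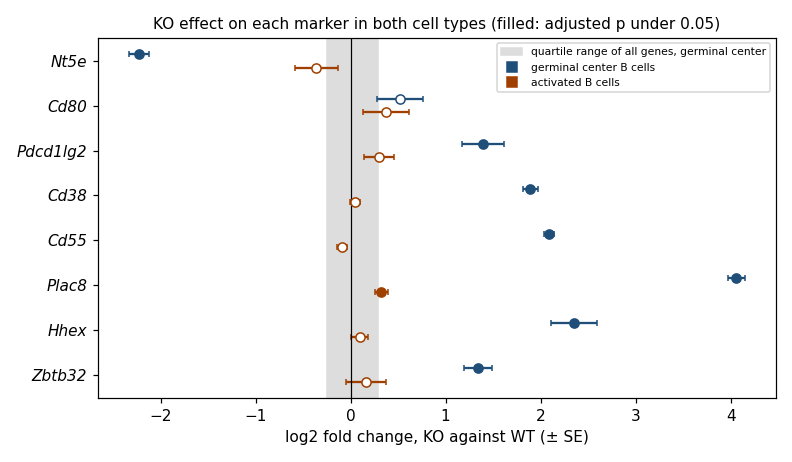
Log2 fold change of KO against WT (x axis, ± SE) for each of the 8 markers in germinal center and activated B cells. Filled points passed at an adjusted p under 0.05, and the grey band is the quartile range of all genes in the germinal center comparison. In germinal center B cells 6 filled markers and the open Cd80 lie right of the band and Nt5e left of it, and in activated B cells only Plac8 is filled.

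The KO effect differed between the cell types for 7 of the 8 markers, by a test of the difference itself in 1 fit of all 8 libraries. The effect was larger upward in germinal center B cells for Plac8 (3.73, SE 0.11, adjusted p = 3.51e-50), Hhex (2.26, SE 0.24), Cd55 (2.18, SE 0.08), Cd38 (1.84, SE 0.09), Zbtb32 (1.18, SE 0.25) and Pdcd1lg2 (1.09, SE 0.27, adjusted p = 0.000822). The Pdcd1lg2 call was lost with DESeq2 (adjusted p = 0.0589). It was larger downward for Nt5e (-1.87, SE 0.24). Cd80 did not pass (0.14, 95% interval -0.56 to 0.85, adjusted p = 0.812). Over 14992 genes, 31.2% were called in this test (17.5% higher, 13.8% lower) and 7.84% with a difference over 2-fold, against 7 of the 8 markers. Within activated B cells alone, 1 of the 8 was called where 6.27% of all genes were, and 7 did not pass, with no gene of the 8 lower (1.42% of all genes), although the genotypes did not overlap for 5 of the 8 (47.8% of all genes).

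The cell types themselves were far apart for these genes. In WT, germinal center B cells held less Plac8 (25.8-fold), Hhex (15.8-fold), Cd55 (11.1-fold), Cd38 (10.3-fold) and Pdcd1lg2 (2.97-fold) than activated B cells, and more Nt5e (8.47-fold) and Zbtb32 (1.45-fold), with Cd80 not passing (adjusted p = 0.875). Across 14426 genes 82.2% were called (40.3% higher, 41.8% lower in germinal center B cells), so these calls are the rule in this comparison. The Zbtb32 call was lost with DESeq2 (adjusted p = 0.205), without WT germinal center replicate 2 (adjusted p = 0.0722) and without WT activated replicate 2 (adjusted p = 0.206). The comparison of KO cells, in which 78.7% of 14307 genes were called (39.2% higher, 39.5% lower), gave the same direction for each of these 7 genes. There the distances were 1.91-fold for Plac8, 3.27-fold for Hhex, 2.42-fold for Cd55, 2.84-fold for Cd38 and 1.37-fold for Pdcd1lg2, all lower in germinal center B cells. Nt5e was 2.34-fold and Zbtb32 3.32-fold higher in KO germinal center than in KO activated B cells. The Pdcd1lg2 difference in KO (log2 fold change -0.46, adjusted p = 0.0119) did not pass with DESeq2 (adjusted p = 0.184) or without KO germinal center replicate 2 (adjusted p = 0.0667). These comparisons share libraries with the KO comparisons above and are not separate evidence.

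The order of the group means followed from these values. For Cd38, Hhex and Plac8 it ran from WT germinal center through KO germinal center and WT activated to KO activated B cells, and Cd55 differed only in that the activated groups were exchanged. The activated groups overlapped for Cd38, and for Cd55, Plac8 and Hhex they did not overlap. Pdcd1lg2 had the same order as Cd38, with KO germinal center and WT activated libraries overlapping. Nt5e ran the other way, from KO activated to WT germinal center B cells, and its activated groups overlapped. For Zbtb32 the 2 activated groups overlapped and lay lowest. For Cd80 the KO activated libraries lay just above those of both WT groups, which overlapped each other. KO germinal center libraries overlapped those of KO activated and WT germinal center B cells, so no full order is given for Cd80. Per kilobase of exon, which allows a comparison between genes, WT germinal center B cells held most Cd55 (11.2 ± 0.86 RPKM), then Nt5e (6.66 ± 0.25), Cd38 (5.98 ± 0.05) and Plac8 (5.37 ± 0.33), and least Hhex (0.43 ± 0.18). In KO germinal center B cells Plac8 stood highest at 89.6 ± 1.56 RPKM, then Cd55 at 47.7 ± 0.72 and Cd38 at 22.1 ± 0.19, and Nt5e was lowest at 1.42 ± 0.09, beside Cd80 at 1.56 ± 0.58.

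Genes with the most similar profile were sought by Pearson's r of log2 CPM over the 8 libraries among 9569 genes (9570 for Cd80) with a mean of at least 50 counts, leaving out predicted and antigen receptor segment genes. These points share libraries and fall into 4 groups, so high values are common, and r is given as a description. Cd38 was closest to Man1a, a mannosidase gene of N-glycan processing (r = 0.9998), and Cd55 to the plasminogen receptor gene Plgrkt (r = 0.9999). Plac8 was closest to the immunity-related GTPase gene Irgm1 and to Ighm, the IgM constant gene (r = 0.9992 for both), and Hhex to Svil, which encodes supervillin (r = 0.9991). Nt5e was closest to the chromatin remodeler gene Smarcc1 (r = 0.9967), Pdcd1lg2 to Abcg3 (r = 0.9920), Zbtb32 to Ccdc189 (r = 0.9907) and the activation marker Cd69 (r = 0.9905), and Cd80, the least well measured, to Pla2g15 (r = 0.9396). Second closest were Aff1 for Cd38 (r = 0.9994), Gpr174 for Cd55 (r = 0.9996) and Ipcef1 for Hhex (r = 0.9988). For Nt5e it was Purb (r = 0.9960), for Pdcd1lg2 Nedd9 (r = 0.9882) and for Cd80 Stard3 (r = 0.9310). Among the members, Cd38 and Cd55 were most alike (r = 0.997), Nt5e was opposite to Cd38, Cd55, Plac8 and Hhex (r = -0.977 to -0.978), and Zbtb32 was close to none (highest r = 0.533, with Cd80).

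Other memory and memory precursor genes moved like most of the 8 in germinal center B cells. Of 19 listed, 16 rose, 2 fell and 1 did not pass, with a median log2 fold change of 1.46. Over all genes tested there, 25.1% were called higher and 25.1% lower. S1pr1, a receptor gene for exit from lymphoid tissue, rose from 23.6 ± 0.90 to 105.7 ± 4.15 CPM (2.17, SE 0.08). Klf2, a factor of recirculating lymphocytes, rose from 42.5 ± 0.96 to 199 ± 3.65 CPM (2.23, SE 0.06), Il9r, a cytokine receptor gene of memory B cells, from 27.2 ± 0.21 to 149 ± 8.90 CPM (2.45, SE 0.07), and Fcer2a, which encodes CD23 of follicular B cells, from 339 ± 0.13 to 788 ± 11.7 CPM (1.22, SE 0.03). The genes that fell were Bach2, a factor that favors memory fate (-0.84, SE 0.04), and the integrin gene Itgb1 (-0.63, SE 0.06), and Cd44 did not pass (-0.03). Bach2, Itgb1 and Cd44 were named after their values were seen. Of 18 tested in activated B cells, 4 rose, 3 fell and 11 did not pass, with a median of 0.07, and Il9r fell there (-0.35, SE 0.06). Of all genes tested in activated B cells, only 4.85% were called higher and 1.42% lower. Tle3, Ski, Bcl2 and Cr2 stand in 2 lists each.

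**Figure D3:**
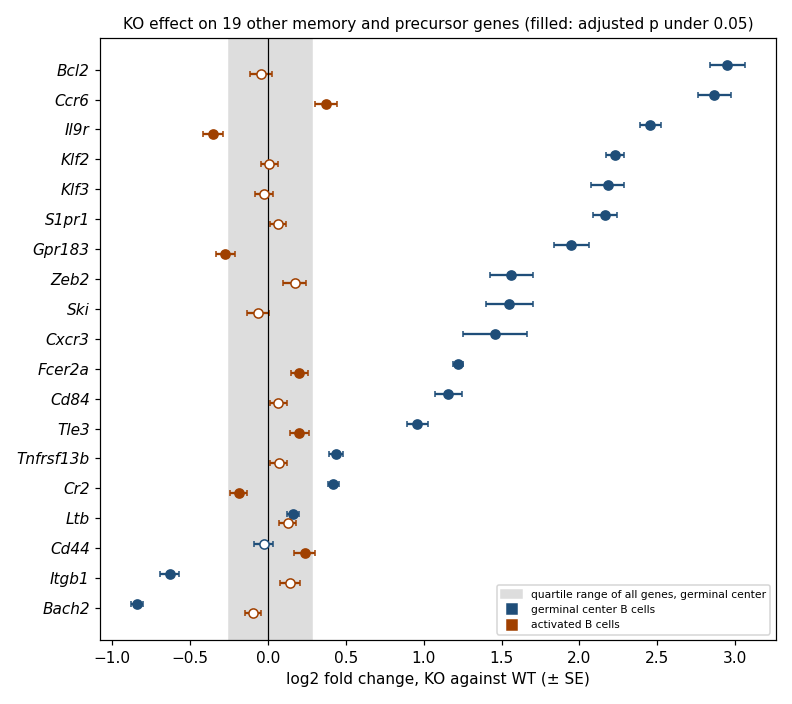
Log2 fold change of KO against WT (x axis, ± SE) for 19 other memory and precursor genes, in germinal center and activated B cells. Filled points passed at an adjusted p under 0.05, and the grey band is the quartile range of all genes in the germinal center comparison. In germinal center B cells 16 genes are higher and Bach2 and Itgb1 lower, and in activated B cells the values lie between -0.35 and 0.37. Cxcr3 was not tested in activated B cells.

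Markers of other B cell states moved with these genes. In KO germinal center B cells all 6 germinal center markers fell, and their summed level was 1164 CPM in both libraries against 2281 to 2282 CPM in WT. All 4 follicular or naive B cell markers rose, with sums of 1735 to 1741 CPM against 726 to 731 CPM, and lay at 4853 to 5090 CPM in activated B cells. Of 5 plasma cell markers tested 4 rose and 1 did not pass, with sums of 830 to 834 CPM against 685 to 704 CPM, and of 5 marginal zone markers 3 rose, with 282 CPM against 238 to 247 CPM. Fcer2a is in both the naive and the memory list. The 10 interferon response genes all rose, with sums of 275 to 280 CPM against 92.9 to 106 CPM. The part of these states in the rise of Cd38, Cd55, Plac8, Hhex, Pdcd1lg2 and Zbtb32 or the fall of Nt5e was not tested.

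Genes listed as markers of non-B cells also moved. Monocyte and macrophage markers summed to 121 to 139 CPM in KO and 44.3 to 44.7 CPM in WT germinal center B cells, with 7 of 8 tested higher, and erythroid markers to 58.7 to 71.4 CPM against 7.44 to 9.65 CPM, with 5 of 5 higher. The largest single part of the monocyte and macrophage sum was Mpeg1, at 77.0 ± 6.57 CPM in KO and 16.4 ± 0.37 CPM in WT. Lyz2 and Adgre1 of that list stood at 3.53 ± 2.07 and 4.26 ± 1.04 CPM in KO germinal center B cells. In WT activated B cells Mpeg1 was at 224 ± 3.19, Lyz2 at 434 ± 30.4 and Adgre1 at 80.0 ± 0.64 CPM. How far the listed transcripts came from B cells was not tested. T cell markers summed to 88.5 to 96.6 CPM in KO and 92.1 to 92.2 CPM in WT, with 2 of 3 tested higher, and Cd3e and Cd8b1 were at 0 in WT. Nearly all of that sum was Lck, at 82.6 ± 6.52 CPM in KO and 90.7 ± 0.18 CPM in WT. Dendritic cell markers summed to 76.1 to 83.5 CPM in KO and 58.1 to 62.0 CPM in WT, with 2 of 3 tested higher, and most of it was Flt3, at 72.1 ± 1.93 CPM in KO and 57.8 ± 3.23 CPM in WT. NK cell, platelet and stromal markers stayed under 4 CPM in each germinal center library, and of the NK markers Gzma and Klrk1 were at 0 in both genotypes. Neutrophil markers were at or near 0 in germinal center B cells, at 1.09 to 1.43 CPM in KO and 0 to 0.36 CPM in WT, with Mpo, Elane and Retnlg at 0 in both. In activated B cells, beside the smaller rise of Plac8, neutrophil markers summed to 1538 to 1883 CPM in KO against 407 to 474 CPM in WT, with 8 of 8 higher. Monocyte and macrophage markers there summed to 1348 to 1465 CPM against 853 to 899 CPM, with 5 of 8 tested higher. Erythroid markers there summed to 855 to 1043 CPM against 589 to 598 CPM, with 5 of 7 higher, and interferon response genes to 193 CPM in both KO libraries against 130 to 137 CPM, with 7 of 10 higher. Of 5 plasma cell markers tested there 3 rose and 1 fell, with sums of 583 to 587 CPM against 486 to 509 CPM. The part of these cells and genes in the levels of Plac8 was not tested.

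**Figure D4:**
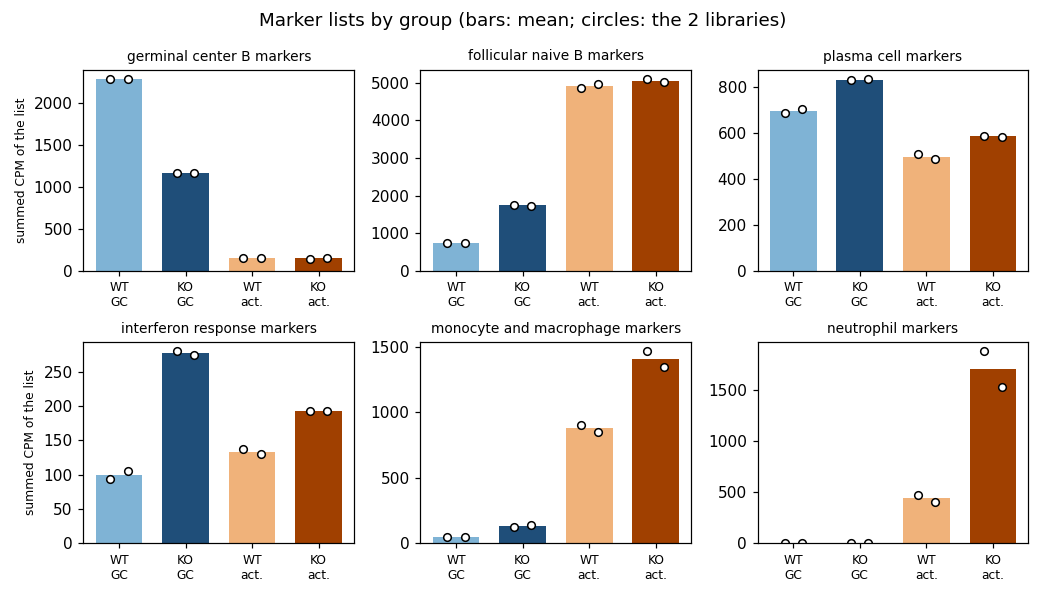
Summed level of 6 fixed marker lists in the 4 groups, in CPM (y axes start at 0 and differ between panels). Bars are group means and circles are the 2 libraries. In KO germinal center (GC) cells the germinal center sum is lower and the follicular naive and interferon sums are higher than in WT, and the neutrophil sum is high only in activated (act.) cells, where KO exceeds WT.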

How the data were processed

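The authors deposited 1 file per library with whole-number read counts per gene. The submitters' processing notes name the build mm10 and the tools DESeq2 and Trimmomatic, with aligner, counting program, strand and versions not given in the sources used here. Of 55401 gene identifiers, 55141 are in GENCODE M21 (GRCm38) without regard to version, and exon lengths came from it. The 5 summary entries that name no gene were left out. Reads assigned to no feature were 47.2% to 53.9% of all entries.

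Counts were tested with edgeR 4.0.16 in R 4.3.3 (TMM, filterByExpr, quasi-likelihood F test, Benjamini-Hochberg adjustment), from the libraries of the groups compared, and from all 8 for the difference of KO effects. The SE was derived as the size of the log2 fold change divided by the square root of the F statistic. Intervals use this SE and the total degrees of freedom of the edgeR fit. DESeq2 1.42.0, other scaling, no filter, a replicate block and leaving out each library were alternatives. Libraries held 8777425 to 11414559 gene counts, and members with few counts have the widest SEs, such as Cd80 throughout, Hhex and Pdcd1lg2 in germinal center B cells and Nt5e and Zbtb32 in activated B cells. The procedure was also run on simulated counts, whose outcome is not given here. They held far fewer changed genes than were called in germinal center B cells. Replicates differed by more than sampling noise (chi-square per degree of freedom 1.39 to 2.40). The members, gene lists, markers and motifs were chosen with earlier results of these data known. Named genes are all members, up to 4 genes per other list with the lowest p in germinal center B cells, and the 2 genes most like each member. Some listed genes are not reported here and enter no count or sum of a list.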

Additional observations from a re-analysis of the deposited data

Results flagged for a closer look

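Every result here was picked out because the KO effect differed between germinal center and activated B cells, tested as an interaction by edgeR's quasi-likelihood test over all 8 libraries. The differences, germinal center minus activated on the log2 scale, were 3.73 for Plac8 (adjusted p = 3.51e-50), 2.26 for Hhex (adjusted p = 2.87e-13), 2.18 for Cd55 (adjusted p = 6.67e-45) and 1.84 for Cd38 (adjusted p = 3.36e-33). They were 1.18 for Zbtb32 (adjusted p = 0.000102), 1.09 for Pdcd1lg2 (adjusted p = 0.000822, but 0.0589 with DESeq2) and -1.87 for Nt5e (adjusted p = 1.95e-10). With 2 libraries per group no single library could be tested as standing apart. Among the markers flagged here, only Nt5e has a negative difference.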

How the results depend on the processing

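The calls of the 8 markers in germinal center B cells kept their direction and side of the threshold under all 9 alternatives, except that Cd80 passed without KO replicate 2. Leaving out single libraries gave 5669 to 5933 calls over all genes there, with 7 or 8 markers called. In activated B cells the number of genes called was 885, but 465 without a filter on low counts, 310 with DESeq2 and 1388 with the replicate block. No marker was called there without the filter (edgeR, 0 called, 1 at an unadjusted p under 0.05, 1 called by DESeq2), and leaving out single libraries gave 0 to 1 markers and 601 to 951 genes. For the difference of KO effects DESeq2 called 2637 genes against 4685, and Pdcd1lg2 did not pass there (adjusted p = 0.0589).

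Signs that turned when a library was left out belonged to differences that had not passed. The ranges over left-out libraries were -0.0532 to 0.404 for Zbtb32 (also -0.0281) and -0.0008 to 0.10 for Cd38 in activated B cells. For Cd80 they were -0.0638 to 0.148 between the WT cell types, -0.20 to 0.56 between the KO cell types and -0.29 to 0.48 for the difference of KO effects. The cause was not tested.

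Whether replicate numbers pair the samples is not known. Deviations of same-numbered libraries correlated between -0.0352 and 0.00992 over genes, which shows no pairing but cannot exclude a shared origin. The replicate block raised the calls in activated B cells to 1388 and left the call of each marker as it was. DESeq2-style size factors moved the median of all genes by at most 0.021 in size and changed no call of a marker.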
